A study of Mus musculus with 4 samples.

Results

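The genes described here are 41 genes of DNA replication and S phase, taken by symbol from a table of 53379 mouse genes. All 41 were found and all 41 passed the filter on low counts that left 18422 genes for testing. RNA came from macrophages of C57BL/6J mice that carried MC38 tumours, grafts of a mouse colon carcinoma line, 21 days after implantation. The high-fat-diet group was 2 mice on that diet and the control-diet group was 2 mice on a control diet, and both groups bore the same tumour. Cells were sorted as positive for CD45, CD11b and F4/80, with 1 polyA library per mouse of 34148682 to 37159552 counts. The sources used here give neither age and sex of the mice nor what the diets contained.

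DNA is copied once per cell cycle. In G1 the origin recognition complex, CDC6 and CDT1 load the MCM helicase onto origins, and at the start of S phase MCM10, CDC45 and the GINS complex turn it into the active helicase, behind which primase and the polymerases synthesise DNA on a sliding clamp. Transcription of most of these genes is driven by E2F factors once cyclin-dependent kinases have inactivated RB, and tissue and tumour macrophages are known to be able to divide locally as well as to arise from monocytes. In sorted bulk RNA, fewer cycling cells and less of a transcript per cycling cell cannot be told apart.

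Letters of the E2F motif were counted in the promoters of the genes. RefSeq promoter windows of GRCm38.p6, from 250 bases before to 50 bases after a gene's start, were found for 33 of the 41 genes. Of these 33 genes, 14 (42.4%) held an E2F motif, written as TTTCGCGC, TTTGGCGC, TTTCCCGC or TTTGCCGC on either strand. The same letters were in 744 of 32851 windows of all genes (2.26%) and in 704 of 27025 genes (2.6%). The 14 genes held 20 matches, some of which overlap each other, and 5 genes held more than 1 match. CCAAT, the letters of the NF-Y motif, was in 19 of the 33 genes (57.6%) and in 41.1% of all genes, and the cell cycle homology letters TTTGAA or TTCGAA were in 7 genes (21.2%) and in 21.7% of all genes. The stretches below hold the 160 bases before the RefSeq start, 5′ to 3′ on the strand of the gene. They are of the 2 genes that passed the test for diet (Tk1 and E2f2) and of the 7 genes with an E2F match wholly inside that stretch. Capitals mark the E2F letters.
Tk1: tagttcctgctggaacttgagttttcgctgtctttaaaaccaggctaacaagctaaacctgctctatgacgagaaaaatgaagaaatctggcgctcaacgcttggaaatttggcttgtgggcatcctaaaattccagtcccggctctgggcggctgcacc
E2f2: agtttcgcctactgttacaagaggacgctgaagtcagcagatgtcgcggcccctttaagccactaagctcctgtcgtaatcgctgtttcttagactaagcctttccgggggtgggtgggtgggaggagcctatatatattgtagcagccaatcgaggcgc
Orc1: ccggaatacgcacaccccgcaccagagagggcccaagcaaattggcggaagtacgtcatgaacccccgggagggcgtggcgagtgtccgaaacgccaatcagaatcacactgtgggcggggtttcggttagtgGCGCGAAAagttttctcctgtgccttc
Cdc6: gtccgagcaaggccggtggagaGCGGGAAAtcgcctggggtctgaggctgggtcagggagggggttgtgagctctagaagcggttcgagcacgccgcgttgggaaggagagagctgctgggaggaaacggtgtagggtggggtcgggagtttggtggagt
Mcm5: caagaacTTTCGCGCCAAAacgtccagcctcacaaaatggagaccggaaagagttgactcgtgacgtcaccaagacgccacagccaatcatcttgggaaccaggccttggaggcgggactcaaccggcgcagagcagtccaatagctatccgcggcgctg
Mcm6: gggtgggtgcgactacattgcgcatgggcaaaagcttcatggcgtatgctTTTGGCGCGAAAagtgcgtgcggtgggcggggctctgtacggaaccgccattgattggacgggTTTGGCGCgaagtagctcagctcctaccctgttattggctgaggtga
Gins3: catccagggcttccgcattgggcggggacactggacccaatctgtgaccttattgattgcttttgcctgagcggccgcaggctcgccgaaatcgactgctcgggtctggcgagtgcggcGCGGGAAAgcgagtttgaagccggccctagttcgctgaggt
Pola1: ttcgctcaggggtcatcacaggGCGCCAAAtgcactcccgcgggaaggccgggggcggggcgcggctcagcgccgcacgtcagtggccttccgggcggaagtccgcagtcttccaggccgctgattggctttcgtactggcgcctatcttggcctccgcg
Rfc3: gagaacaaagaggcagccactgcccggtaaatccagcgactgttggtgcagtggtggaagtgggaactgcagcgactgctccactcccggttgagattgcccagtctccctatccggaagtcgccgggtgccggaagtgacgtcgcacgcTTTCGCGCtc
These are Tk1 chr11:117826015-117826174 (minus strand), E2f2 chr4:136172114-136172273 (plus strand), Orc1 chr4:108579294-108579453 (plus strand), Cdc6 chr11:98907991-98908150 (plus strand), Mcm5 chr8:75109349-75109508 (plus strand), Mcm6 chr1:128359706-128359865 (minus strand), Gins3 chr8:95633399-95633558 (plus strand), Pola1 chrX:93632156-93632315 (minus strand) and Rfc3 chr5:151651209-151651368 (minus strand). Mcm5 and Mcm6 each held a pair of overlapping matches on opposite strands, and Mcm6 held a further one nearer to the start. Tk1 held no match to these letters in its window. GENCODE starts differ from those of RefSeq in several genes. The whole Cdc6 stretch lay after its GENCODE start at 98907801. The matches of Orc1, Gins3 and Rfc3 lay after their GENCODE starts at 108579423, 95633453 and 151651242. Part of the Tk1 stretch lay after its GENCODE start at 117826092. The one match of E2f2 lay after the RefSeq start but before the GENCODE start at 136172394, within the 30 bases at chr4:136172294-136172323 (plus strand).
E2f2: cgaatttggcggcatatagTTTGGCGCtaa
The matches describe the letters only and say nothing of binding in these cells.

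**Figure D1:**
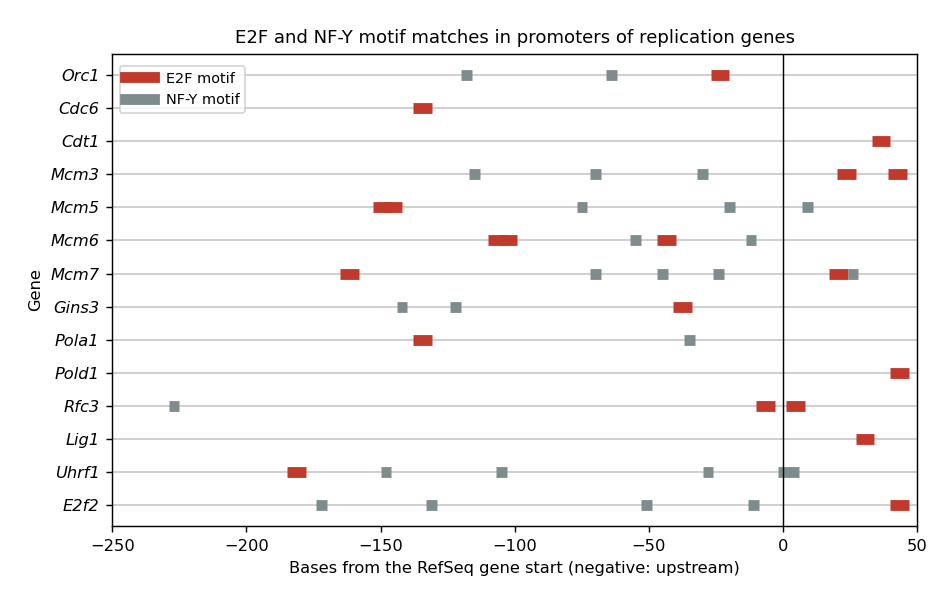
Position of E2F motif matches (red) and NF-Y motif matches (grey) in the promoter windows of the 14 replication genes with an E2F match, in bases from the RefSeq gene start. Matches lie on both sides of the start, 12 of the 20 E2F matches begin upstream of it, and matches of a gene with several windows are drawn on 1 line.

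Between the diets few replication genes passed the test one by one with 2 mice a diet, and most had higher estimates in the high-fat-diet libraries. Tk1 rose and E2f2 fell, so 1 of the 41 genes was called higher and 1 lower by edgeR at a Benjamini-Hochberg adjusted p below 0.05. Among all tested genes 2.61% were called higher and 7.91% lower, so the share of 2.44% in each direction is no more than the background. Of the 41 genes 35 had a positive log2 fold change of high-fat diet over control diet (85.4%), against 50.4% of all tested genes. With other scalings 33 (upper quartile) to 40 (library size only) of the 41 were positive. The median log2 fold change was 0.32 over the 41 genes and 0.005 over all tested genes. The extremes were E2f2 at -0.64 and Ccne2 at 1.35. In 26 genes (63.4%) both high-fat-diet libraries lay above both control-diet libraries, and in 2 genes (4.88%), Pola2 and E2f2, both lay below. Over all tested genes those shares were 32.2% and 31.6%. At an unadjusted p below 0.05 there were 12 higher genes and 1 lower gene among the 41, against 13.6% and 17.7% of all tested genes.

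The estimates changed when single mice were left out. In such a fit 1 diet has a single mouse, which is assumed to vary like the 2 mice of the other diet, since only they give a spread. The number of genes called over all genes changed in these fits too, so their calls cannot be read for the replication genes alone. The median log2 fold change was 0.27 in the fit lacking high-fat-diet mouse 1, 0.46 lacking high-fat-diet mouse 2, 0.14 lacking control-diet mouse 1 and 0.51 lacking control-diet mouse 2. With all libraries, limma voom called Tk1 and E2f2, while DESeq2 added Rrm2, Dut and Ccne2 as higher. Over all genes limma voom called 397 higher and 1263 lower of 18422, and DESeq2 1080 higher and 1874 lower of 30068.

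**Figure D2:**
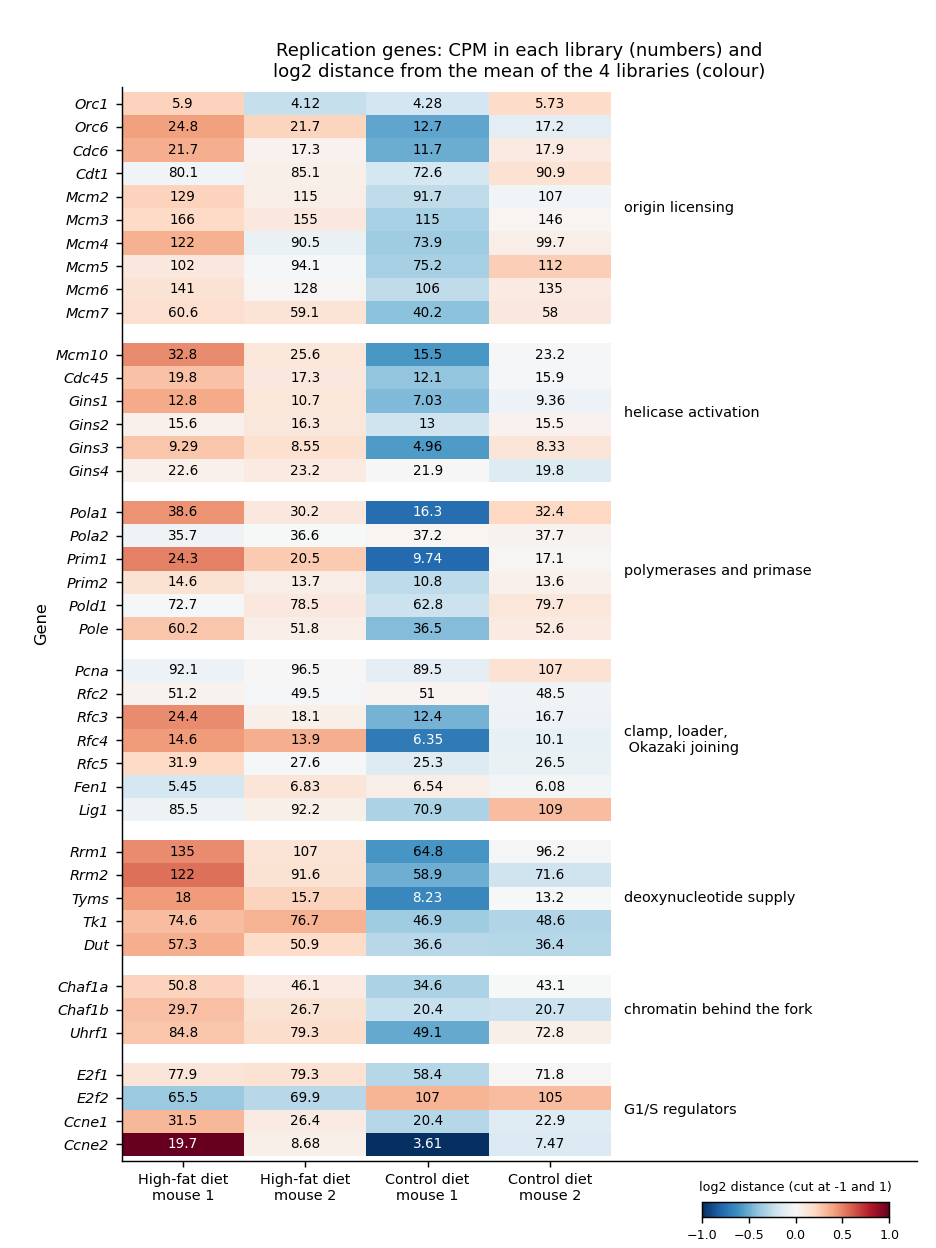
Scaled counts (CPM) of the 41 replication genes in the 4 libraries, with colour for the log2 distance from the gene's mean over the libraries. High-fat-diet mouse 1 held the highest value of 29 genes and control-diet mouse 1 the lowest value of 34 genes.

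The enzymes that supply deoxynucleotides all had positive estimates, and 1 of the 5 passed the test. Tk1, the thymidine kinase of the salvage pathway, had 74.6 and 76.7 CPM in the high-fat-diet libraries of mice 1 and 2, against 46.9 and 48.6 CPM in the control-diet libraries of mice 1 and 2, where CPM are counts scaled to the TMM-adjusted size of the library. The mice of a diet were close and the diets did not overlap. Tk1 (chromosome 11, 117815526 to 117826092, GRCm38) averaged 75.7 ± 1.49 CPM on the high-fat diet and 47.7 ± 1.2 CPM on the control diet (SD, n = 2 each). Its log2 fold change was 0.66 (SE 0.13, edgeR adjusted p = 0.036), with both high-fat-diet mice above both control-diet mice. The call was lost when high-fat-diet mouse 1 (edgeR adjusted p = 0.175) or mouse 2 (0.161) was left out, while its log2 fold change stayed between 0.64 and 0.70 in all fits that left out 1 library.

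Dut, the dUTPase that keeps uracil out of DNA, had 57.3 and 50.9 CPM in the high-fat-diet mice, against 36.6 and 36.4 CPM in the control-diet mice. The diets were apart by more than either pair of mice, and the gene just missed the threshold (log2 fold change 0.57, SE 0.14, edgeR adjusted p = 0.0554). Rrm1, the large subunit of ribonucleotide reductase, had 135 and 107 CPM in the high-fat-diet mice, against 64.8 and 96.2 CPM in the control-diet mice. Rrm2, the small subunit that limits the enzyme's activity to S phase, had 122 and 91.6 CPM in the high-fat-diet mice, against 58.9 and 71.6 CPM in the control-diet mice. In both subunits high-fat-diet mouse 1 was highest and control-diet mouse 1 lowest, with adjusted p = 0.145 for Rrm1 and 0.0685 for Rrm2 by edgeR. Tyms, the thymidylate synthase that makes dTMP from dUMP, had 18 and 15.7 CPM in the high-fat-diet mice, against 8.23 and 13.2 CPM in the control-diet mice (adjusted p = 0.152). All 5 enzymes had both high-fat-diet libraries above both control-diet libraries, as had 32.2% of all tested genes. All 5 were higher at an unadjusted p below 0.05 by edgeR, as were 13.6% of all tested genes. Their log2 fold changes were 0.57 to 0.71 (median 0.65). The 5 enzymes summed to 407 and 342 CPM in the high-fat-diet mice, against 215 and 266 CPM in the control-diet mice.

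Of the 4 regulators of the G1/S transition 1 fell, and the other estimates were positive. E2f2, an E2F factor of the activator class, had 65.5 and 69.9 CPM in the high-fat-diet mice, against 107 and 105 CPM in the control-diet mice. Its pairs of mice were close and the diets did not overlap. E2f2 (chromosome 4, 136172394 to 136196057, GRCm38) averaged 67.7 ± 3.16 CPM on the high-fat diet and 106 ± 1.65 CPM on the control diet (SD, n = 2 each). Its log2 fold change was -0.64 (SE 0.14, edgeR adjusted p = 0.0393), with both high-fat-diet mice below both control-diet mice. The call was lost when high-fat-diet mouse 1 (edgeR adjusted p = 0.273) or mouse 2 (0.174) was left out, and with libraries scaled by their total alone (0.0509). Its log2 fold change stayed between -0.67 and -0.58 in all fits that left out 1 library.

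E2f1, the activator E2F most studied at the entry into S phase, had 77.9 and 79.3 CPM in the high-fat-diet mice, against 58.4 and 71.8 CPM in the control-diet mice (log2 fold change 0.27, SE 0.16, edgeR adjusted p = 0.285). The 2 activator factors thus had estimates of opposite sign, and the difference between the 2 genes was not tested. Ccne1, cyclin E1, the partner of CDK2 in S phase entry, had 31.5 and 26.4 CPM in the high-fat-diet mice, against 20.4 and 22.9 CPM in the control-diet mice (adjusted p = 0.148). Ccne2, cyclin E2, had 19.7 and 8.68 CPM in the high-fat-diet mice, against 3.61 and 7.47 CPM in the control-diet mice. It had the largest estimate of the 41 genes, a log2 fold change of 1.35 with a 95% interval from 0.17 to 2.54 (adjusted p = 0.123), and high-fat-diet mouse 1 stood far above the other libraries.

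Of the 10 origin licensing genes edgeR, limma voom and DESeq2 called 0, and 1 (Orc6) had an unadjusted p below 0.05. Orc6, the smallest subunit of the origin recognition complex, had 24.8 and 21.7 CPM in the high-fat-diet mice, against 12.7 and 17.2 CPM in the control-diet mice (log2 fold change 0.64, SE 0.20, edgeR adjusted p = 0.0946). Orc1, the subunit of that complex whose level cycles in human cells, had 5.9 and 4.12 CPM in the high-fat-diet mice, against 4.28 and 5.73 CPM in the control-diet mice, so the diets overlapped. The loading factors were at 21.7 and 17.3 CPM in the high-fat-diet mice against 11.7 and 17.9 CPM in the control-diet mice for Cdc6. For Cdt1 they were at 80.1 and 85.1 CPM in the high-fat-diet mice against 72.6 and 90.9 CPM in the control-diet mice, with a log2 fold change of 0.01 (95% interval -0.38 to 0.41). Both loading factors overlapped between the diets.

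The 6 subunits of the MCM helicase ring all had small positive log2 fold changes, from 0.06 to 0.30. Mcm3 had 166 and 155 CPM in the high-fat-diet mice, against 115 and 146 CPM in the control-diet mice (log2 fold change 0.30, SE 0.17, edgeR adjusted p = 0.281). The other log2 fold changes were 0.29 for Mcm2, 0.29 for Mcm4, 0.06 for Mcm5, 0.15 for Mcm6 and 0.28 for Mcm7, with adjusted p from 0.252 for Mcm2 to 0.867 for Mcm5. Mcm2, Mcm3 and Mcm7 had both high-fat-diet libraries above both control-diet libraries, as had 32.2% of all tested genes, while Mcm4, Mcm5 and Mcm6 overlapped. In all 6 subunits control-diet mouse 1 was the lowest library, at 91.7 CPM for Mcm2, 73.9 for Mcm4, 75.2 for Mcm5, 106 for Mcm6 and 40.2 for Mcm7. Without that mouse the estimates of Mcm5 and Mcm6 were -0.19 and -0.003 on the log2 scale.

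The 6 factors that activate the helicase all had both high-fat-diet libraries above both control-diet libraries, as had 32.2% of all tested genes. Of the 6 factors edgeR, limma voom and DESeq2 called 0. Mcm10, which helps the loaded helicase to open DNA, had 32.8 and 25.6 CPM in the high-fat-diet mice, against 15.5 and 23.2 CPM in the control-diet mice. It was the 1 factor of the 6 with an unadjusted p below 0.05 (log2 fold change 0.59, SE 0.24, edgeR adjusted p = 0.155). Cdc45, a subunit of the active helicase, had 19.8 and 17.3 CPM in the high-fat-diet mice, against 12.1 and 15.9 CPM in the control-diet mice (adjusted p = 0.225). The 4 GINS subunits, which bind the helicase in 1 complex, had log2 fold changes of 0.52 for Gins1, 0.16 for Gins2, 0.42 for Gins3 and 0.14 for Gins4. Gins4 was the exception to the order of the control-diet mice, at 21.9 CPM in mouse 1 and 19.8 CPM in mouse 2.

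Among the polymerases and primase subunits, Prim1 stood at the top. Prim1, the catalytic primase subunit, had 24.3 and 20.5 CPM in the high-fat-diet mice, against 9.74 and 17.1 CPM in the control-diet mice (log2 fold change 0.74, SE 0.29, edgeR adjusted p = 0.143). Prim2, its partner, had 14.6 and 13.7 CPM in the high-fat-diet mice, against 10.8 and 13.6 CPM in the control-diet mice. Pola1, the catalytic subunit of polymerase alpha, had 38.6 and 30.2 CPM in the high-fat-diet mice, against 16.3 and 32.4 CPM in the control-diet mice, so control-diet mouse 2 lay among the high-fat-diet mice. Its partner Pola2 was level, at 35.7 and 36.6 CPM in the high-fat-diet mice, against 37.2 and 37.7 CPM in the control-diet mice (log2 fold change -0.05, 95% interval -0.38 to 0.27). Pold1, the catalytic subunit of the lagging-strand polymerase delta, had 72.7 and 78.5 CPM in the high-fat-diet mice, against 62.8 and 79.7 CPM in the control-diet mice. Pole, that of the leading-strand polymerase epsilon, had 60.2 and 51.8 CPM in the high-fat-diet mice, against 36.5 and 52.6 CPM in the control-diet mice. Both polymerases overlapped between the diets, and edgeR, limma voom and DESeq2 called 0 of the 6 genes, with 1 (Prim1) at an unadjusted p below 0.05.

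The clamp and the enzymes that join Okazaki fragments had estimates close to 0. Pcna, the sliding clamp, had 92.1 and 96.5 CPM in the high-fat-diet mice, against 89.5 and 107 CPM in the control-diet mice (log2 fold change -0.06, 95% interval -0.43 to 0.31). Lig1, the ligase that seals the nicks, had 85.5 and 92.2 CPM in the high-fat-diet mice, against 70.9 and 109 CPM in the control-diet mice (log2 fold change -0.02). Fen1, the flap nuclease, had 5.45 and 6.83 CPM in the high-fat-diet mice, against 6.54 and 6.08 CPM in the control-diet mice. In these 3 genes the diets overlapped, and the intervals reach to 0.52 on the log2 scale for Lig1 and Fen1. Among the subunits of the clamp loader, Rfc4 had 14.6 and 13.9 CPM in the high-fat-diet mice, against 6.35 and 10.1 CPM in the control-diet mice (log2 fold change 0.79, SE 0.26, edgeR adjusted p = 0.101). The other loader subunits had log2 fold changes of 0.54 for Rfc3, 0.20 for Rfc5 and 0.02 for Rfc2. Over the 7 genes edgeR, limma voom and DESeq2 called 0, with 1 gene at an unadjusted p below 0.05 by edgeR and 2 by DESeq2, and the median log2 fold change was 0.02.

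Behind the fork, CAF-1 places new nucleosomes and UHRF1 brings DNA methylation onto the new strand. Chaf1b, a CAF-1 subunit, had 29.7 and 26.7 CPM in the high-fat-diet mice, against 20.4 and 20.7 CPM in the control-diet mice (log2 fold change 0.46, SE 0.15, edgeR adjusted p = 0.0995). Chaf1a, the large subunit, had 50.8 and 46.1 CPM in the high-fat-diet mice, against 34.6 and 43.1 CPM in the control-diet mice. Uhrf1 had 84.8 and 79.3 CPM in the high-fat-diet mice, against 49.1 and 72.8 CPM in the control-diet mice (adjusted p = 0.218). In all 3 genes both high-fat-diet libraries lay above both control-diet libraries, as in 32.2% of all tested genes. Of the 3 genes edgeR, limma voom and DESeq2 called 0, and 1 (Chaf1b) had an unadjusted p below 0.05.

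**Figure D3:**
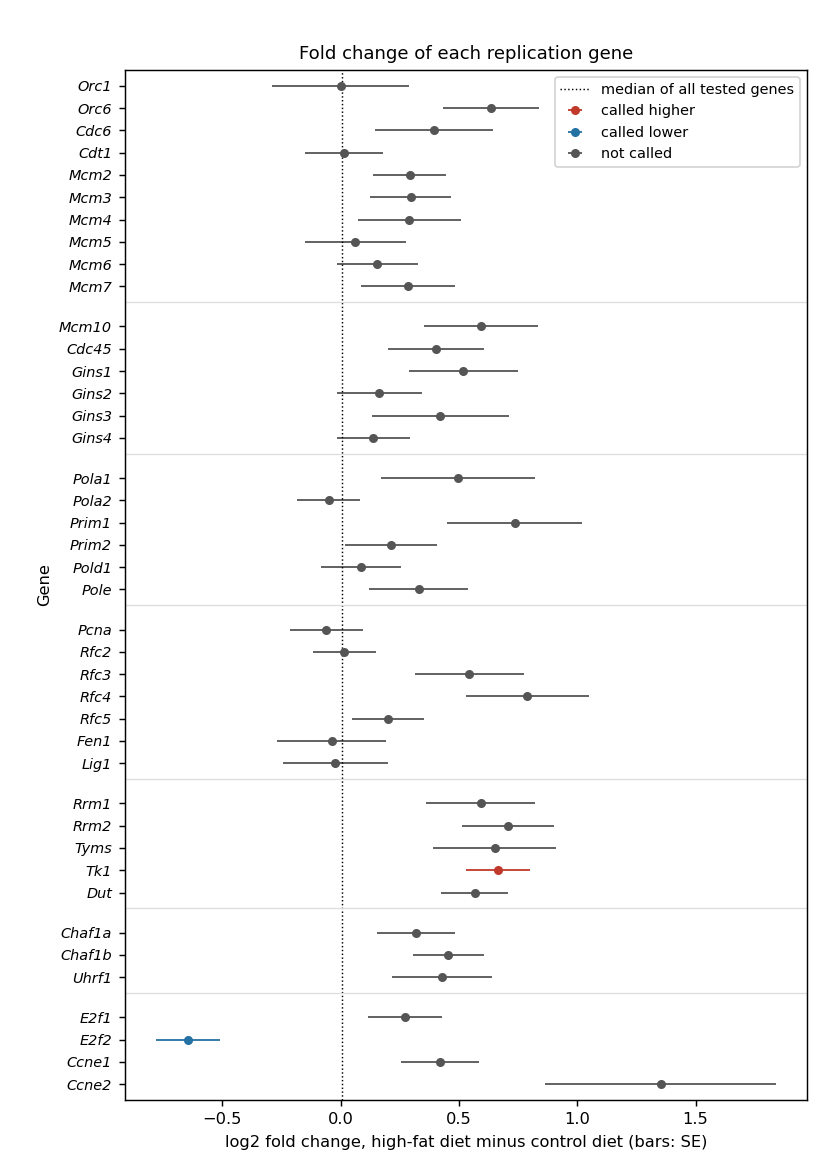
Log2 fold change of each replication gene, high-fat diet minus control diet, as points with bars for the SE, grouped by role. Tk1 (red) was called higher and E2f2 (blue) lower, and the dotted line is the median of all tested genes at 0.005.

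The replication genes also moved together between mice on 1 diet. Control-diet mouse 2 lay above control-diet mouse 1 in 36 of the 41 genes (87.8%), against 50.6% of all tested genes. The median log2 ratio of mouse 2 over mouse 1, on CPM with 0.5 added, was 0.35 over the 41 genes on the control diet. The median of 0.32 between the diets is of edgeR estimates between groups of 2 mice. A ratio of single mice is an unlike measure, so the 2 medians cannot be ranked. High-fat-diet mouse 2 lay below high-fat-diet mouse 1 in 30 genes (73.2%), against 51.8% of all tested genes, with a median log2 ratio of -0.14. Summed over the 41 genes the CPM were 2282 and 2086 in the high-fat-diet mice, against 1623 and 2049 in the control-diet mice. Control-diet mouse 2 therefore came close to high-fat-diet mouse 2 in the sum, and control-diet mouse 1 was the library that stood low. The control-diet mice were closest in Tk1 (log2 ratio 0.05), Chaf1b (0.02), Pola2 (0.02), Dut (-0.01) and E2f2 (-0.03).

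**Figure D4:**
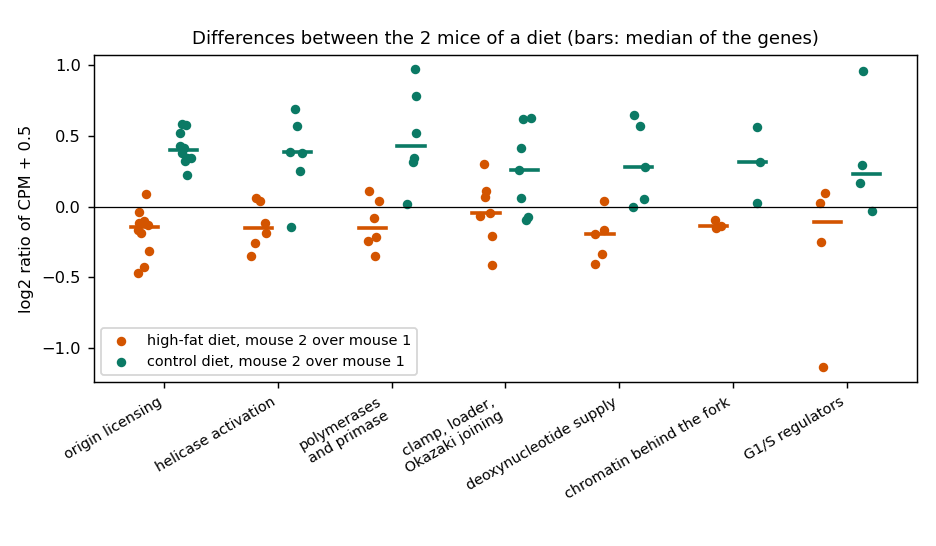
Log2 ratio of mouse 2 over mouse 1 for each replication gene, on the high-fat diet (orange) and on the control diet (green), by role, with bars at the median of the genes. Most green points lie above 0 and most orange points below it, with group medians from 0.23 to 0.43 on the control diet and from -0.19 to -0.05 on the high-fat diet.

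Some replication genes have processed pseudogene copies that were given many counts of their own. A copy with at least 90% identity over at least 400 bases was found for 7 of the 41 genes. Pcna-ps2, 99.2% identical to Pcna over 781 bases, held 6608 and 5360 counts in the high-fat-diet mice, against 3435 and 5370 counts in the control-diet mice. Pcna itself held 3447 and 3704 counts in the high-fat-diet mice, against 2904 and 3984 counts in the control-diet mice, so the copy held 148% of the gene's counts. Tyms-ps held 91.6% of the counts of Tyms, Gm12870 64.2% of those of Rfc5, Gm5648 53% of those of Uhrf1 and Gm9430 34.5% of those of Cdc6. The copies of Rrm2 (6.69%) and Mcm4 (3.05%) held little. Which of these reads came from the gene cannot be told from the counts.

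Added to their copies, 6 of the 7 genes kept the sign of their difference and Pcna did not. Gene and copy of Pcna together had 269 and 236 CPM in the high-fat-diet mice, against 195 and 251 CPM in the control-diet mice, a log2 fold change of 0.18 in place of -0.06 (edgeR adjusted p = 0.547). Tyms with its copy had 34.6 and 30.4 CPM in the high-fat-diet mice, against 16 and 24.5 CPM in the control-diet mice (log2 fold change 0.69, adjusted p = 0.105). Rfc5 moved from 0.20 to 0.28 on the log2 scale and Uhrf1 from 0.43 to 0.36. The number of replication genes called stayed at 1 in each direction.

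**Figure D5:**
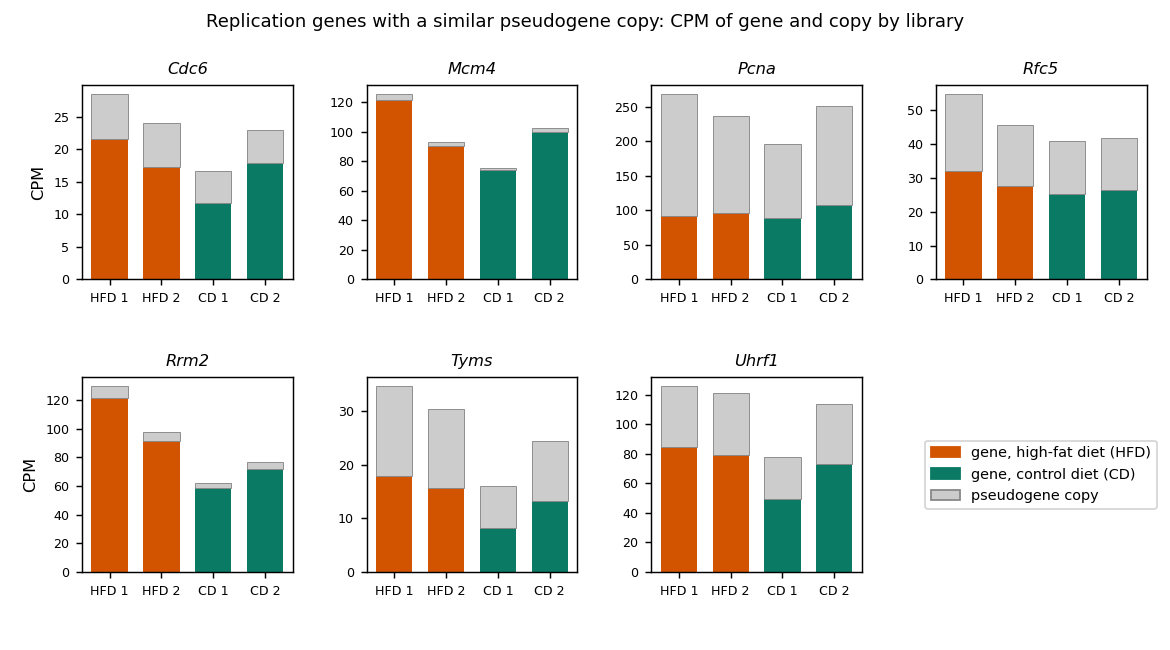
CPM of the 7 replication genes with a similar pseudogene copy in the high-fat-diet (HFD) and control-diet (CD) libraries, with the counts of the copy in grey on top of those of the gene. The grey part is larger than the gene's own in Pcna and about as large in Tyms.

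Overlapping genes bear on further levels. The library kit keeps the strand, but the sources used here do not say whether the counting used it. Exons of 14 of the 41 genes share bases with a gene of the opposite strand. The overlap takes 78.8% of the exon bases of Fen1 (with Gm10143), 67.3% of those of Gins2 (with Gse1) and 52.5% of those of Chaf1a (with Ubxn6), so the levels of these 3 genes are uncertain. It takes 17.4% in Ccne2 (with Ints8), 12.7% in Rfc4 (with Eif4a2), 6.93% in Orc6 (with Vps35) and 1.6% in Tk1 (with Afmid), and E2f2 shares none.

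Of 36 further replication genes 29 had a positive log2 fold change (median 0.39), and edgeR called 1 higher and 0 lower. At an unadjusted p below 0.05 there were 13 of the 36, and DESeq2 called 6 higher and 0 lower. The gene called by edgeR, Tipin, which protects stalled forks, rose to 30.1 and 24.8 CPM in the high-fat-diet mice, against 12.9 and 16.2 CPM in the control-diet mice (log2 fold change 0.92, SE 0.19, edgeR adjusted p = 0.0387). Gmnn, geminin, the inhibitor of CDT1, had 18.1 and 19.5 CPM in the high-fat-diet mice, against 10.3 and 12.9 CPM in the control-diet mice (adjusted p = 0.0666). Dbf4, the activator of the CDC7 kinase that fires origins, had 62.2 and 46.3 CPM in the high-fat-diet mice, against 26.4 and 36.8 CPM in the control-diet mice (adjusted p = 0.077).

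Of 17 further genes of deoxynucleotide metabolism edgeR called 2 higher and 0 lower and DESeq2 2 higher and 1 lower, with a median log2 fold change of 0.18. Of the genes called by edgeR, Dtymk, the kinase that phosphorylates dTMP, rose to 33.9 and 32 CPM in the high-fat-diet mice, against 18.9 and 21 CPM in the control-diet mice (edgeR adjusted p = 0.0371). Samhd1, which degrades deoxynucleotides in non-dividing macrophages, had 515 and 383 CPM in the high-fat-diet mice, against 1252 and 681 CPM in the control-diet mice (log2 fold change -1.11, SE 0.32, adjusted p = 0.0758). Tk1 and Dtymk, which both act on the routes to dTTP, were thus called, while Tyms and Dut on the same routes were not. Their log2 fold changes were similar, at 0.66 for Tk1, 0.72 for Dtymk, 0.65 for Tyms and 0.57 for Dut. Differences between these genes were not tested.

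Among 13 further genes of chromatin replication edgeR called 0, with 4 at an unadjusted p below 0.05, limma voom called 0 and DESeq2 called 3. Their median log2 fold change was 0.42. Of 27 genes of RB, E2F and CDK control edgeR called 2 higher and 0 lower and DESeq2 4 higher and 0 lower, with a median of 0.23. Cks1b, a subunit of cyclin-dependent kinase complexes, rose to 54.1 and 50.2 CPM in the high-fat-diet mice, against 27.3 and 33.1 CPM in the control-diet mice (edgeR adjusted p = 0.0356). Skp2, which with CKS1B marks the inhibitor p27 for degradation, rose to 36.6 and 30.5 CPM in the high-fat-diet mice, against 19.5 and 20.5 CPM in the control-diet mice (adjusted p = 0.0403).

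Of 17 inhibitors of the cycle edgeR called 0 higher and 3 lower and DESeq2 1 higher and 3 lower, and the median log2 fold change was 0.00. Cdkn1a, the p53 target p21 that inhibits cyclin-dependent kinases and binds PCNA, fell to 186 and 230 CPM in the high-fat-diet mice, against 707 and 426 CPM in the control-diet mice (log2 fold change -1.44, SE 0.27, edgeR adjusted p = 0.0317). Gadd45b, a stress-induced growth arrest gene, fell to 51.1 and 58.3 CPM in the high-fat-diet mice, against 335 and 240 CPM in the control-diet mice (adjusted p = 0.00658). Mxd1, a repressor that competes with MYC for MAX, fell to 52.7 and 60.3 CPM in the high-fat-diet mice, against 410 and 177 CPM in the control-diet mice (adjusted p = 0.0241). In all 3 genes both high-fat-diet mice lay below both control-diet mice, and control-diet mouse 1 was the highest library. Cdkn2c, which encodes the CDK4 and CDK6 inhibitor p18, had the opposite sign, at 59 and 55.8 CPM in the high-fat-diet mice, against 23.8 and 41.2 CPM in the control-diet mice (log2 fold change 0.82, SE 0.26, edgeR adjusted p = 0.0941). Cdkn1b, which encodes p27, had 89.5 and 93.9 CPM in the high-fat-diet mice, against 82.8 and 85.7 CPM in the control-diet mice (adjusted p = 0.571).

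Of 20 mitosis genes edgeR called 8 higher and 0 lower and DESeq2 15 higher and 0 lower, with a median log2 fold change of 0.82, where the 41 replication genes had 1 and 1 by edgeR and 4 and 1 by DESeq2 with a median of 0.32, and the difference between the lists was not tested. Their sum was 2312 and 2024 CPM in the high-fat-diet mice, against 928 and 1614 CPM in the control-diet mice, and on the control diet mouse 2 exceeded mouse 1 by a median of 0.64 log2 units.

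Markers of other cell types moved with the diets and between the mice. The 12 macrophage markers summed to 16228 and 17072 CPM in the high-fat-diet mice, against 14270 and 16950 CPM in the control-diet mice. In 5 of the 12 both high-fat-diet libraries lay above both control-diet libraries, and in 5 both lay below. Of the 12 edgeR called 0, with 2 at an unadjusted p below 0.05, while limma voom and DESeq2 also called 0. Of 10 fibroblast and pericyte markers edgeR called 6 higher, with sums of 2064 and 2058 CPM in the high-fat-diet mice, against 1040 and 779 CPM in the control-diet mice, and none of the 10 was at 0. Of 9 tested epithelial markers edgeR called 8 lower and limma voom 3, and DESeq2 called 10 of 10 lower. Sums over all 10 were 41.4 and 48.1 CPM in the high-fat-diet mice, against 166 and 139 CPM in the control-diet mice. Cldn3 was at 0 counts in both high-fat-diet libraries. Cdh1, which edgeR did not call, made up most of the sum in control-diet mouse 1. It had 38.5 and 45.2 CPM in the high-fat-diet mice, against 144 and 57 CPM in the control-diet mice. Of the 9 tested epithelial markers 8 were higher in control-diet mouse 2 than in mouse 1. Of 7 tested neutrophil markers edgeR called 5 lower and limma voom 3, and DESeq2 called 6 of 8 lower. Sums over all 8 were 88.5 and 89.3 CPM in the high-fat-diet mice, against 269 and 119 CPM in the control-diet mice. Ly6g was at 0 in both high-fat-diet libraries.

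T and NK cell markers summed to 38.3 and 33.2 CPM in the high-fat-diet mice, against 117 and 30.6 CPM in the control-diet mice. Among them Cd4 rose to 3.39 and 4.12 CPM in the high-fat-diet mice, against 0.493 and 0.484 CPM in the control-diet mice, and Gzma fell to 0.801 and 0.234 CPM in the high-fat-diet mice, against 27.3 and 5.97 CPM in the control-diet mice. By edgeR the list thus held called markers in opposite directions. In this list limma voom called 1 higher and 0 lower, and DESeq2 1 higher and 2 lower. Monocyte markers summed to 990 and 580 CPM in the high-fat-diet mice, against 1508 and 585 CPM in the control-diet mice. Dendritic cell markers summed to 126 and 149 CPM in the high-fat-diet mice, against 210 and 113 CPM in the control-diet mice. Fscn1, which was not called, made up most of each of these sums. Of the 7 dendritic cell markers edgeR called 0 higher and 2 lower, Clec9a and Cd209a, limma voom 1 lower and DESeq2 4 lower. Clec9a had 3.15 and 2.42 CPM in the high-fat-diet mice, against 15.2 and 16.5 CPM in the control-diet mice (edgeR adjusted p = 0.00735). Endothelial markers summed to 42.1 and 58.2 CPM in the high-fat-diet mice, against 91.6 and 51.6 CPM in the control-diet mice, and B cell markers to 15.4 and 17.2 CPM in the high-fat-diet mice, against 11.3 and 18.4 CPM in the control-diet mice. Most of these sums came from Pecam1 and Cd79b, and the B cell marker Cd79a fell to 0.0267 and 0.0782 CPM in the high-fat-diet mice, against 2.03 and 1.86 CPM in the control-diet mice. Control-diet mouse 1, the library with the lowest value of most replication genes, thus held the highest sums of neutrophil, T and NK cell, monocyte and dendritic cell markers. Its epithelial and endothelial sums were also the highest, mostly from Cdh1 and Pecam1. The part of these markers in the differences of the replication genes was not tested.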

How the data were processed

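PolyA RNA of sorted macrophages was sequenced from 4 mice, 2 per diet, named as separate mice in the titles. The deposited values are counts that the authors left unnormalised. The submitters' processing notes name BWA 0.7.12, cutadapt 1.15, FastQC 0.11.5 and DESeq2 1.24.0 with builds GRCm38 and mm10. The sources used here do not say what each did, how genes were counted or how shared reads were treated.

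Symbols were found by identifier for 53274 of 53379 genes. All genes were fitted with edgeR 4.0.16 in R 4.3.3 (filterByExpr with minimum count 10 and minimum total 15, TMM, robust quasi-likelihood test, diet as the only term), adjusted by Benjamini-Hochberg over 18422 genes and called at 0.05. Intervals of 95% use the test's SE. The fit was tested on simulated counts. Alternatives were limma 3.58.1 (voom), DESeq2 1.42.0, other scalings and filters, a replicate block and leaving out each library. Pseudogene copies were found with BLAST 2.17.0 in GENCODE M21 transcripts (GRCm38).

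The genes and lists were chosen with earlier results of these data known. Library values were to be given for called genes and, in each role, for the uncalled gene of highest level and of smallest p, and further lists name called genes and up to 4 of smallest p. Other genes given by library, and Cdkn1b, were chosen after their values were seen. A called gene of deoxynucleotide metabolism is not reported here.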

Additional observations from a re-analysis of the deposited data

How the results depend on the processing

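With 2 mice a diet, the counts of called replication genes followed the settings. The number called higher was 2 with library size only, 4 with DESeq2 and 9 with no low-count filter, and the number called lower was 0 with library size only. The median log2 fold change was 0.38 with library size only and ran from 0.14 to 0.51 over the fits that left out 1 library. Without the low-count filter the calls over all genes were 1552 higher and 2231 lower of 30068, and with DESeq2 1080 and 1874 of 30068. Of 18422 genes they were 616 and 1338 with library size only, and 480 and 1457 with all libraries and the main settings.

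With the replicate block, which uses the mouse numbers of the labels, edgeR called 0 higher and 0 lower replication genes (11 at an unadjusted p below 0.05), with adjusted p = 0.0645 for Tk1 and 0.0702 for E2f2. The numbers are not known to pair mice across diets: across 10312 genes the correlation of the mouse 2 over mouse 1 difference between the diets was -0.189. With the replicate block on crossed numbers, an alternative chosen after seeing the data as was the sum with copies, 7 were called higher and 1 lower. Over all 18422 genes that fit called 909 higher and 1546 lower, against 567 and 1481 with the block on the numbers of the labels.

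Of the 41 genes 31 kept their direction in all 15 alternatives, and the other 10, none of them called, changed sign in at least 1. With library size only the log2 fold change was 0.0618 for Orc1, 0.0187 for Pola2, 0.00591 for Pcna, 0.0334 for Fen1 and 0.0399 for Lig1. With no low-count filter it was 0.0463 for Orc1, 0.00647 for Fen1 and 0.0238 for Lig1. DESeq2 gave 0.0144 for Orc1 and limma voom 0.0113 for Lig1, and the replicate block gave Lig1 0.0105, or 0.0103 on crossed numbers. Upper quartile scaling gave -0.0137 for Cdt1 and -0.0112 for Rfc2, and a filter of 50 counts in 2 libraries gave -0.0179 for Cdt1 and -0.0152 for Rfc2. Pcna with its copy was at 0.176. Fits without 1 library ran from -0.264 to 0.258 for Orc1, -0.134 to 0.187 for Cdt1, -0.193 to 0.381 for Mcm5, -0.00346 to 0.339 for Mcm6, -0.0701 to 0.269 for Pold1, -0.179 to 0.0752 for Pcna, -0.0205 to 0.0609 for Rfc2, -0.19 to 0.133 for Fen1 and -0.296 to 0.326 for Lig1. The cause of these changes was not tested.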

Other observations

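Of 11 tested genes of growth factor signalling and transcription factors that bear on macrophage division, edgeR called 1 higher and 0 lower. Maf, a transcription factor of the macrophage lineage, rose to 349 and 353 CPM in the high-fat-diet mice, against 119 and 192 CPM in the control-diet mice (log2 fold change 1.17, SE 0.24, edgeR adjusted p = 0.0375). Csf2rb, the shared beta chain of the GM-CSF receptor, had 239 and 255 CPM in the high-fat-diet mice, against 723 and 352 CPM in the control-diet mice (adjusted p = 0.0806). Control-diet mouse 1 was again the library farthest from the others in both genes.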
